A study of Mus musculus with 24 samples.

Results

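Upstream open reading frames (ORFs) are short reading frames that lie on an mRNA before a longer one. Here they were taken from a table of ribosome P-site counts in mouse liver, in which each ORF is given by a transcript, a start and an end. On each transcript with at least 2 listed ORFs the longest was called the main ORF, and every other ORF that ended before its start was called upstream. This gave 1073 upstream ORFs among 22590 ORFs, on 974 of the 1414 transcripts with at least 2 ORFs. The longest listed ORF need not be the annotated coding sequence, and the table pairs no transcript with a gene, so each ORF is named by its transcript and its first and last base there.

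The livers came from 24 male F1 hybrid C57BL6J/FVBN mice, housed singly on a synthetic diet, in 6 groups of 4. Wild-type mice (Ercc1 +/+) were fed ad libitum to 16 weeks, fed ad libitum to 104 weeks, or kept at 30% dietary restriction and sampled at 16 weeks. Ercc1 d/- mice, called mutants here, were fed ad libitum to 7 weeks, fed ad libitum to 16 weeks, or kept at 30% restriction and sampled at 16 weeks. Restriction began at 7 weeks of age and was full from 9 weeks, and no mouse was fed on the day of collection before the liver was taken. ERCC1 is the partner of XPF in an endonuclease that cuts damaged DNA during repair. Both of its alleles are altered in every cell of the mutants, so that effects arising in liver cells cannot be told apart from effects of the whole animal.

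A ribosome that scans an mRNA from its cap can start at an upstream ORF, and translation there commonly lowers initiation at the ORF that follows. Some upstream ORFs instead let the main ORF be translated when initiation factor eIF2 is phosphorylated, as on the mRNA of the stress regulator Atf4. Ribosome profiling counts mRNA fragments protected by ribosomes, and the P-site is the position within the ribosome that holds the growing peptide. Footprint counts mix mRNA amount with translation, and the mRNA profiles of these livers were not used here. An upstream ORF and its main ORF are listed on the same transcript, but how reads fitting several transcripts were counted is not given. In whole liver, fewer cells of a type and fewer footprints per cell cannot be told apart.

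The upstream ORFs were short and often thinly covered. Their length ran from 9 to 2049 bases with a median of 93 bases, against a median of 1144.5 bases for the main ORFs. The quartiles of their length were 60 and 153 bases, and 74 upstream ORFs were longer than 300 bases. A single upstream ORF was listed on 889 transcripts, 2 on 74 transcripts and 3 or more on 11 transcripts, up to 5. The distance from the end of the upstream ORF to the start of the main ORF ran from 3 to 3197 bases with a median of 123 bases. Relative to the main ORF, 338 upstream ORFs were in frame, 354 were offset by 1 base and 381 by 2 bases. In 25 of them the first base was the first base of the transcript. Each ORF had a median of 132 P-sites over all 24 libraries, with a range from 2 to 273962. In the pooled libraries the median upstream ORF had 11.4 P-sites per 100 P-sites of its main ORF. Per base, 753 of the 1073 had a higher P-site density than the main ORF, and 119 had more P-sites outright. The 24 counts of an upstream ORF never equalled those of another ORF in the table.

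Each library held 791 to 973 upstream ORFs with a P-site and 16800 to 53406 upstream P-sites, of a total of 8562294 to 27241137 P-sites. P-sites per 100 reads of the gene table stood at 58.1 in replicate 1 of the old wild type and at 86.4 to 109 in the other 23 libraries. Tested results on the old mice are therefore also given without that library. Without it the upstream ORFs of old wild type took 0.217% ± 0.0371 of P-sites (SD, n = 3), against 0.212% with it. Ercc1 itself had 34 to 110 reads in the wild-type libraries and 1 to 15 in the mutants. The summed level of 7 hepatocyte markers was at least 91754 CPM (counts per 1000000) in every library, against at most 565 CPM for 8 macrophage markers, and each of these markers was detected. Upstream ORFs were tested when they passed a filter on low counts, which 500 of them did, and for 470 of these the main ORF passed as well. The 573 ORFs that did not pass had at most 169 P-sites each over all libraries. The 470 pairs lay on 433 transcripts, 33 of which carried more than 1 tested upstream ORF, so the pairs are not all independent.

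Translation of upstream ORFs was concentrated on a few of them. The 5 with the most P-sites held 44.6% of all upstream P-sites, and the first alone held 32.1%. That first ORF, ENSMUST00000192401_411_548, is 138 bases long and precedes a main ORF of 207 bases. Over all libraries it had 273962 P-sites against 37569 on that main ORF, which is longer but may not be the coding sequence. Its level in CPM, P-sites per 1000000 ORF P-sites after scaling between libraries, was 756, 720, 643 and 919 in fed young wild type and 468, 552, 489 and 553 in restricted wild type. Every restricted wild-type library lay below every fed one. The log2 change was -0.56 ± 0.16 (SE), with an adjusted p of 0.0223 in edgeR's quasi-likelihood test. In mutants at 16 weeks its level was 622, 736, 611 and 766 CPM when fed and 455, 569, 450 and 554 CPM when restricted. These groups did not overlap either, but the log2 change of -0.43 ± 0.16 missed the threshold in edgeR, with an adjusted p of 0.0829.

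The other 4 of the most translated upstream ORFs varied in different comparisons. ENSMUST00000047356_253_426 stood at 48.2, 60.2, 36.9 and 49.7 CPM in fed young wild type and at 15.5, 25.4, 18.3 and 19.5 CPM in fed mutants of the same age. All mutant libraries were lower, at 7 weeks too, where the level was 13.8 to 20.1 CPM. At 16 weeks the log2 difference was -1.31 ± 0.24 (edgeR adjusted p 0.000888), beside -1.13 for its main ORF, and its ratio to the main ORF differed by -0.16 ± 0.45. Over all libraries this main ORF had 516 P-sites, against 15591 on the upstream ORF. ENSMUST00000186891_1_525, which begins at the first base of its transcript, was at 94.2, 127, 92.5 and 105 CPM in old wild type against 54.3, 56.0, 70.9 and 64.8 CPM in young wild type. The old libraries, replicate 1 included, were all above the young ones, with a log2 change of 0.77 ± 0.16 (edgeR adjusted p 0.00314). Without old replicate 1 the change was 0.82 ± 0.17 (adjusted p 0.00444). ENSMUST00000082428_137_322 and ENSMUST00000227415_99_320 passed the test in none of the 6 comparisons, with adjusted p-values in edgeR from 0.286 to 1 and from 0.0886 to 0.99.

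Upstream translation relative to the main ORFs was lowest in restricted mutants. Summed over the 470 pairs, upstream ORFs had 27.4 ± 1.97 P-sites per 100 main-ORF P-sites in fed young wild type and 24.5 ± 2.13 in restricted wild type (SD, n = 4). It was 25.6 ± 2.78 in old wild type (25.8 ± 3.36 without replicate 1, n = 3), 26.8 ± 1.21 in mutants of 7 weeks, 24.6 ± 1.24 in fed mutants of 16 weeks and 20.6 ± 1.17 in restricted mutants. The 4 restricted mutant livers lay between 19.3 and 22.0, below the 23.1 to 26.1 of the fed mutants and below the lowest library of any other group, 22.5 in restricted wild type. The wild-type groups overlapped, at 26.1 to 30.3 fed and 22.5 to 27.5 restricted. Without the most translated upstream ORF the mutant ranges still did not overlap, at 14.8 to 16.5 fed and 13.6 to 14.6 restricted, while the wild-type means were 17.6 ± 0.719 fed and 17.7 ± 1.81 restricted. The median over the pairs, which weighs each ORF alike, was 11.2 ± 0.716 in fed and 9.5 ± 1.00 in restricted mutants, and here the ranges of 10.6 to 12.2 and 8.27 to 10.7 overlapped, since the highest restricted mutant lay above 2 of the fed ones. As a score over chosen ORFs, these values were given no p. As a share of all P-sites, upstream ORFs took 0.221% ± 0.0141 in fed young wild type, 0.180% ± 0.00874 in restricted wild type, 0.212% ± 0.0320 in old wild type, 0.222% ± 0.0193 in mutants of 7 weeks, 0.203% ± 0.0251 in fed mutants of 16 weeks and 0.161% ± 0.00445 in restricted mutants.

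**Figure D1:**
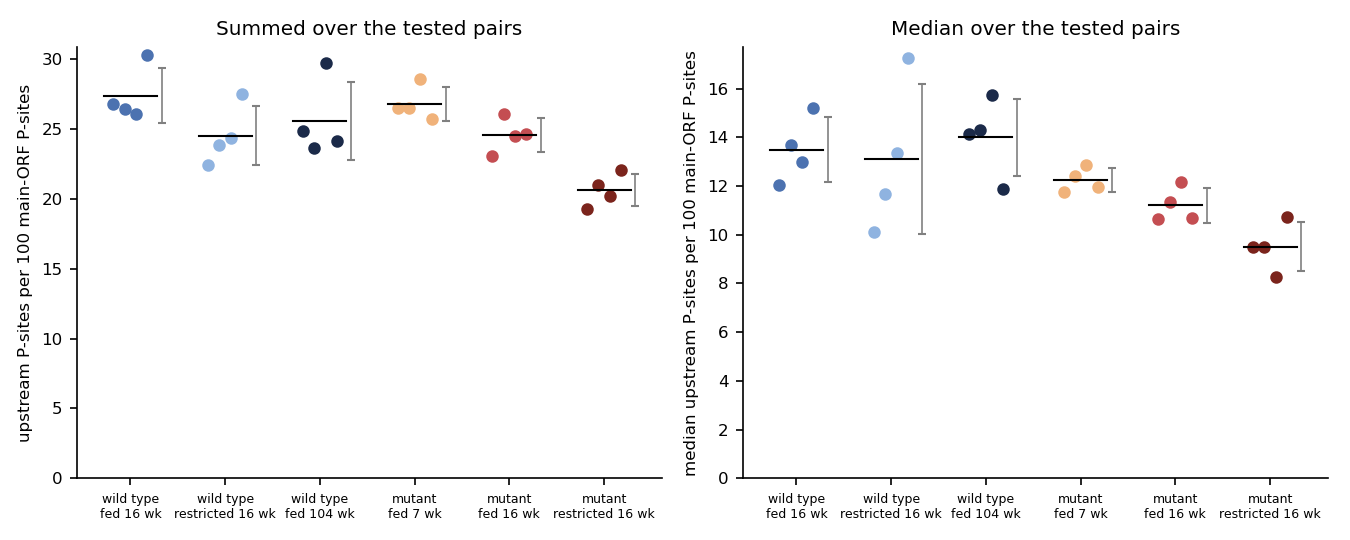
Upstream P-sites per 100 main-ORF P-sites in each library, by group (4 livers a group; points are libraries in replicate order, black lines group means, grey bars ± SD), summed over the 470 tested pairs on the left and as the median over pairs on the right. Both axes start at 0, and the restricted mutants are the lowest group in both, at 19.3 to 22.0 on the left and 8.27 to 10.7 on the right.

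In mutants, restriction changed 42 of the 500 tested upstream ORFs, 8 up and 34 down. That is 8.4% of them, close to the 9.77% of all 18344 ORFs tested. Of all ORFs 4.7% were called higher and 5.08% lower, so the calls among upstream ORFs leaned to the lower side. With library sizes from the gene table, 4 were higher and 31 lower. The median log2 change was -0.30 over the upstream ORFs, 0.00 over all ORFs and -0.01 over the 433 main ORFs of the pairs. Of the 40 called ORFs whose main ORF was tested, 11 had a main ORF that was called as well, where 38 of all 433 main ORFs were called. Across the 470 pairs, Spearman's rho between the changes of the upstream and the main ORF was 0.43, a description over pairs that share libraries.

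Among the called upstream ORFs with a mean of at least 20 P-sites in the higher group and no overlap between groups, the largest rises and falls in restricted mutants are given here; some called ORFs outside these limits had larger fitted changes. ENSMUST00000227275_191_250 was at 0.579, 0.318, 0.150 and 0.214 CPM in fed and at 5.83, 3.84, 1.51 and 1.45 CPM in restricted mutants. Every restricted library was above every fed one. The rise was 3.38 ± 0.64 on the log2 scale (edgeR adjusted p 0.000878), and its main ORF differed by 3.12. ENSMUST00000028880_260_337 was at 0.579, 0.741, 0.902 and 0.727 CPM fed and at 1.75, 1.46, 2.48 and 1.81 CPM restricted, again without overlap. Its log2 rise of 1.33 ± 0.41 (edgeR adjusted p 0.0357) lost the call in 7 of the 8 fits that left out a library (adjusted p 0.0522 to 0.0921). Its main ORF rose by 0.90 (edgeR adjusted p 0.0195).

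Among the falls, ENSMUST00000152420_55_105 went from 11.0, 9.11, 4.51 and 12.7 CPM in fed to 1.07, 2.53, 1.65 and 2.17 CPM in restricted mutants. All restricted livers were lower, by -2.34 ± 0.37 on the log2 scale (edgeR adjusted p 0.000151), and the main ORF was lower by nearly as much, -2.30. ENSMUST00000046426_191_280 did not follow its main ORF. Its level was 2.10, 1.54, 2.56 and 0.727 CPM in fed and 0.583, 0.243, 0.287 and 0.362 CPM in restricted mutants, with no overlap. The log2 change was -2.21 ± 0.42 (edgeR adjusted p 0.000975) beside -0.35 for its main ORF, and the ratio fell by 1.80 ± 0.41 on the log2 scale (edgeR adjusted p 0.0102). On the ratio the groups did overlap, at 4.50 to 17.5 per 100 in fed and 1.98 to 5.50 in restricted mutants.

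The ratio of each upstream ORF to its main ORF was tested within libraries, which removes what both share. In restricted against fed mutants 19 of the 470 upstream pairs were called, 18 lower and 1 higher. The 19 are 4.04% of the upstream pairs, against 3.33% of all 750 pairs tested, in which the second ORF lay upstream, downstream or overlapped the main one. Of all pairs 2.93% were called lower and 0.4% higher. The ratio was below 0 in 325 of the 470 pairs (69.1%), with a median log2 change of -0.33, while the median was 0.14 for the 87 downstream and -0.10 for the 193 overlapping ORFs. A single pair had a median SE of 0.46, so most changes of that size were not detectable one by one. The count fell to 6 without fed mutant replicate 3, to 10 without restricted mutant replicate 2 and to 9 without restricted mutant replicate 3. The median stayed between -0.35 and -0.26 when any 1 of the 8 libraries was left out.

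**Figure D2:**
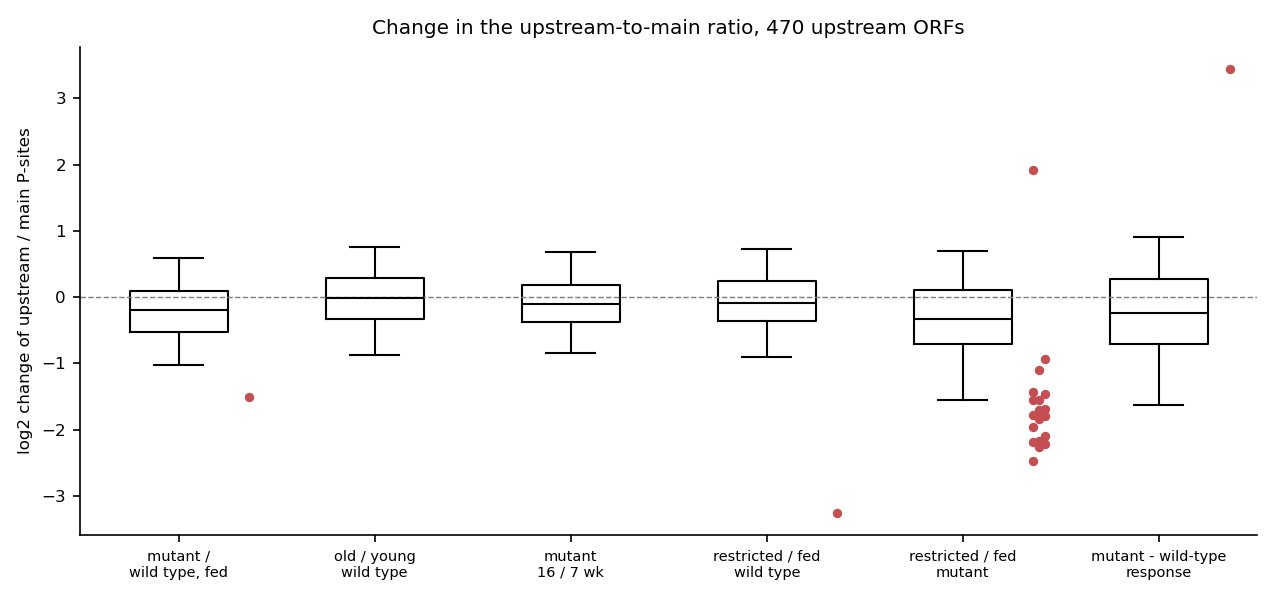
Log2 change of the upstream-to-main ratio in the 470 upstream pairs for each of the 6 comparisons. Boxes span the quartiles with the median as a line, whiskers reach the 5th and 95th percentiles, and red points are the pairs with an adjusted p under 0.05. Restricted against fed mutants has the lowest median, -0.33, and 18 of the red points below 0.

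The lower ratios of these 18 upstream ORFs came with little movement of the main ORF. The median log2 change was -1.56 for the upstream ORFs and 0.23 for their main ORFs, which ranged from -0.47 to 0.77. The upstream ORF was itself called lower in 14 of the 18, and the main ORF was called in 1. Of all ORFs 5.08% were called lower and 9.77% in either direction. The 18 were chosen on this ratio in the same libraries, so low upstream values and steady main ORFs follow in part from the choice. In 13 of the 18 the ratios of the 2 groups did not overlap, which the choice also favours. The share without overlap over all pairs was not counted. The 18 ORFs were 54 to 186 bases long, ended 9 to 628 bases before the main ORF, and had 182 to 8552 P-sites each. The pair called higher, ENSMUST00000172522_68_130, was singled out after its values were seen. Its ratio rose by 1.92 ± 0.57 (edgeR adjusted p 0.0471) with a log2 change of -0.37 for the upstream ORF and -2.43 for the main ORF.

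**Figure D3:**
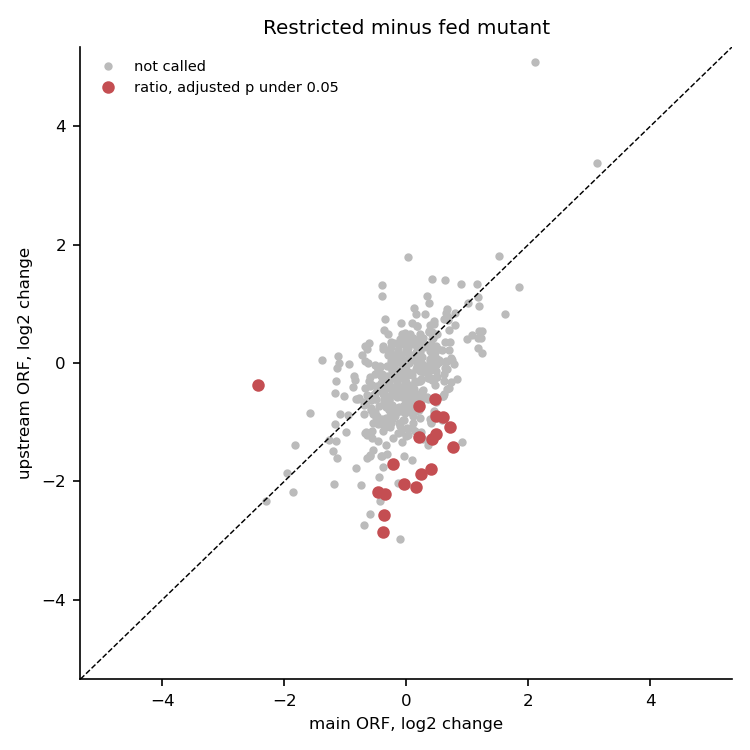
Log2 change of the upstream ORF (vertical) against that of its main ORF (horizontal) in restricted minus fed mutants for the 470 pairs, with the line of equal change dashed. Grey points are pairs not called and red points the 19 called on the ratio, 18 of them below the line and 1 above it.

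ENSMUST00000110375_209_262, of 54 bases, had 7.61, 6.80, 11.6 and 7.51 P-sites per 100 of its main ORF in fed mutants and 1.17, 1.71, 1.5 and 2.87 in restricted mutants. All restricted mutants were below all fed ones, and below every library of the other groups, whose lowest value was 5.17 in restricted wild type. The ratio fell by 2.26 ± 0.36 on the log2 scale (edgeR adjusted p 7.54e-05), with a change of 0.16 in the main ORF. The same ratio in restricted against fed wild type changed by -0.64 ± 0.32 (edgeR adjusted p 0.874), and the difference between the genotypes, -1.62 ± 0.48, did not pass (adjusted p 0.159).

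ENSMUST00000044454_281_361, of 81 bases, had 35.6, 20.1, 18.9 and 10.3 P-sites per 100 of its main ORF in fed mutants and 7.69, 2.00, 4.74 and 3.42 in restricted ones. The groups did not overlap, although the fed mutants were widely spread. The fall was 2.10 ± 0.43 on the log2 scale (edgeR adjusted p 0.00431), beside 0.24 for the main ORF. In old wild type the ratio was 38.0 to 46.2, above the 22.2 to 31.9 of young wild type, yet this difference of 0.62 ± 0.37 did not pass in edgeR (adjusted p 0.883, and 0.967 without old replicate 1). The calls of ENSMUST00000110375_209_262 and ENSMUST00000044454_281_361 held in all 8 fits that left out a library.

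**Figure D4:**
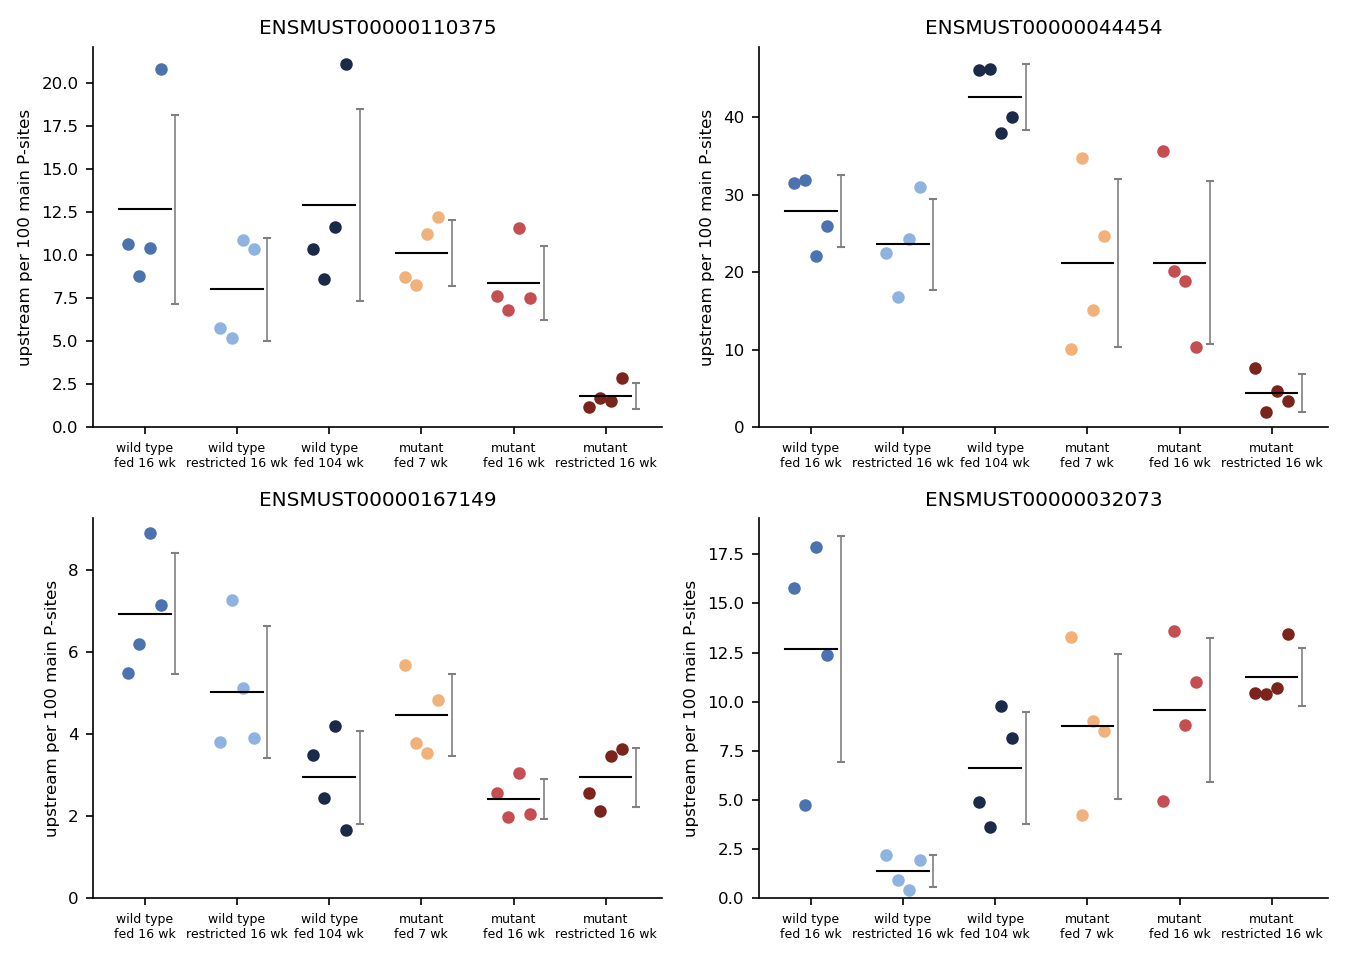
P-sites of 4 upstream ORFs per 100 P-sites of their main ORF in each library, by group (points are the 4 libraries in replicate order, black lines means, grey bars ± SD; axes start at 0). The upper 2 are lowest in restricted mutants, at 1.17 to 2.87 and 2.00 to 7.69, the lower left is lower in fed mutants than in fed young wild type, and the lower right is lowest in restricted wild type, at 0.446 to 2.19.

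The 18 upstream ORFs with a lower ratio were then read in the groups that did not choose them. Their median ratio, taken over group means, was 16.9 per 100 in fed young wild type, 14.3 in restricted wild type, 23.1 in old wild type (22.5 without replicate 1) and 16.0 in mutants of 7 weeks, beside 20.3 in fed and 3.92 in restricted mutants. In restricted against fed wild type 12 of the 18 changes were below 0, with a median of -0.20, a range from -1.62 to 0.71, and none called (lowest edgeR adjusted p 0.117, with 3 at an unadjusted p under 0.05). In old against young wild type 4 of 18 were below 0, with a median of 0.28, and without old replicate 1 again 4 of 18, with a median of 0.19. Over all 470 upstream pairs 55.1% were below 0 in restricted against fed wild type and 52.1% in old against young wild type. The medians over all of them were -0.08 and -0.02. The difference between the genotypes' responses shares the mutant libraries with the choice of the 18; its values ran from -2.50 to -0.67, and none of the 18 was called (lowest adjusted p 0.0834 in edgeR, with 16 at an unadjusted p under 0.05). The hepatocyte marker sum also differed between these groups, with 155414 to 201398 CPM in restricted and 103780 to 144776 CPM in fed mutants, and its part in the ratios was not tested. Macrophage markers were at 412 to 540 CPM and 418 to 565 CPM.

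**Figure D5:**
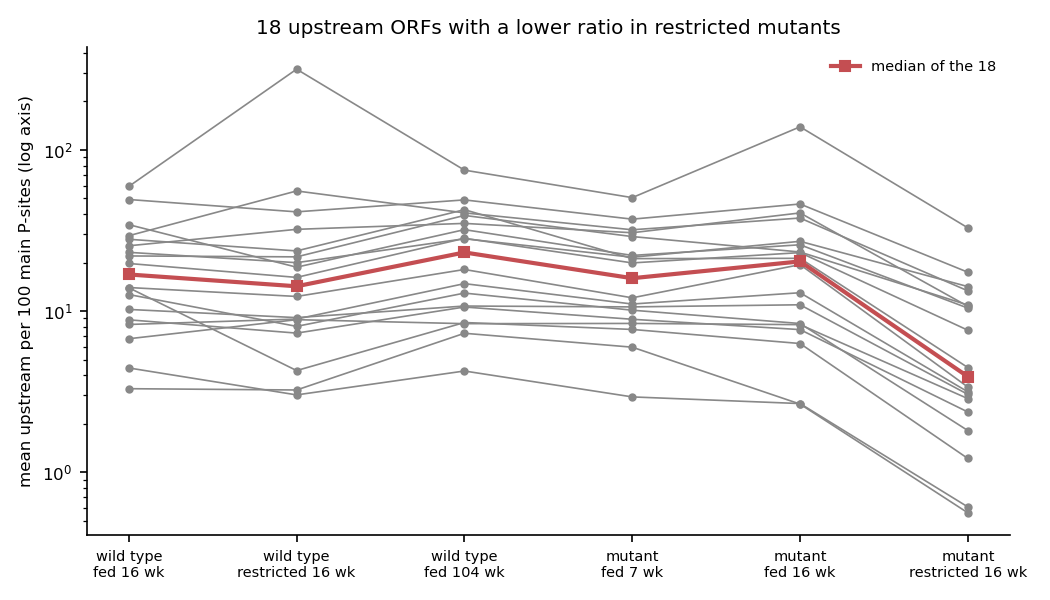
Mean upstream P-sites per 100 main-ORF P-sites in the 6 groups (log axis) for the 18 upstream ORFs called lower in restricted mutants; each grey line is an ORF, drawn across unordered groups, and red squares are their median. The median is 3.92 in restricted mutants, for which the ORFs were chosen, and 14.3 to 23.1 in the other groups.

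The ratio change in restricted mutants was below 0 at the median in every split of the 470 pairs by length, position, frame and coverage. Split in 3 by length, the median log2 ratio change was -0.36 for ORFs of up to 72 bases, -0.33 for 75 to 138 bases and -0.31 for 141 bases and more. Split by distance to the main ORF it was -0.33, -0.31 and -0.35 from near to far. By frame it was -0.31 in frame and -0.28 and -0.37 at offsets of 1 and 2 bases. By number of P-sites it was -0.40, -0.36 and -0.22 from few to many, so the least covered ORFs had the lowest median. By the position of its first base on the transcript it was -0.29, -0.42 and -0.29 from near the transcript's start to far, and 10 of the 19 calls lay in the middle range, from base 85 to 224. By the ratio to the main ORF in the pooled libraries it was -0.39, -0.29 and -0.29 from low to high. These splits share libraries and were not tested against each other.

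In wild type, restriction changed 23 of the 500 upstream ORFs, 9 up and 14 down, or 4.6% against 10.8% of all ORFs, which were 5.51% up and 5.3% down. Without restricted replicate 2 the count was 34, and without any other single library it was 16 to 30. Fitted on these 2 groups alone, edgeR called 11, 5 up and 6 down. Hepatocyte markers summed to 172642 to 244388 CPM in restricted and 146200 to 155746 CPM in fed wild type, and stellate cell markers to 308 to 602 CPM and 202 to 304 CPM, neither with overlap. Their part in these changes was not tested. With library sizes taken from the gene table the split was 4 up and 15 down. The median log2 change was -0.09 over upstream ORFs and 0.03 over all ORFs. ENSMUST00000171210_970_1011 was at 0.280, 0.463, 0.495 and 0.265 CPM in fed and at 1.13, 3.06, 1.93 and 1.72 CPM in restricted wild type, all higher. Its log2 rise was 2.33 ± 0.50 (edgeR adjusted p 0.0031), with 2.07 in its main ORF. ENSMUST00000174459_210_494 went from 1.08, 1.56, 2.06 and 1.15 CPM to 3.09, 2.31, 5.76 and 8.05 CPM, again with no overlap. Its rise of 1.69 ± 0.45 (edgeR adjusted p 0.016) lost the call without fed replicate 1 (adjusted p 0.0603) or restricted replicate 4 (0.0851).

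The steepest fall in restricted wild type was on a short ORF of 15 bases, ENSMUST00000032073_330_344. It stood at 3.4, 0.809, 2.39 and 2.74 CPM in fed and at 0.117, 0.0538, 0.0472 and 0.0660 CPM in restricted wild type. All restricted livers were far below the fed ones, by -4.86 ± 0.65 on the log2 scale (edgeR adjusted p 1.3e-05), against -1.55 for its main ORF. The ORF had a mean of 1.5 P-sites per library in restricted and 47 in fed wild type, so the restricted values rest on very few P-sites. Its ratio was 15.8, 4.75, 17.8 and 12.4 per 100 fed and 2.19, 0.935, 0.446 and 1.96 restricted, and these did not overlap. This was the single ratio called in restricted wild type among the 470 upstream pairs, where 0.133% of all pairs were called, with a change of -3.26 ± 0.57 (edgeR adjusted p 0.000851). Without restricted replicate 3 the call was lost (adjusted p 0.0644). Over the 470 pairs the median ratio change was -0.08, against -0.003 for the downstream and -0.02 for the overlapping ORFs.

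ENSMUST00000022826_235_330 fell from 4.80, 4.22, 10.1 and 6.27 CPM in fed to 0.156, 1.02, 0.330 and 0.0660 CPM in restricted wild type, with a log2 change of -4.01 ± 0.43 (edgeR adjusted p 2.73e-07). A second upstream ORF of that transcript, ENSMUST00000022826_350_553, was at 9.35, 8.90, 14.6 and 10.2 CPM fed and 0.547, 1.51, 0.519 and 0.528 CPM restricted, a change of -3.80 ± 0.31 (edgeR adjusted p 4.43e-09). Neither ORF overlapped between the groups. Their longest ORF, of 288 bases, did not pass the filter, so no ratio was tested, and the 2 ORFs are readings of 1 transcript.

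The mutant response to restriction differed from the wild-type response in 3 of the 500 upstream ORFs, 0.6% against 0.654% of all ORFs (0.403% higher and 0.251% lower), and 2 of these are the ORFs of that transcript. DESeq2 called 10, 4 higher and 6 lower. In mutants ENSMUST00000022826_235_330 was at 3.04, 3.71, 3.51 and 3.38 CPM fed and 1.99, 1.17, 1.76 and 1.59 CPM restricted, a smaller fall than in wild type. The difference of the log2 responses was 2.94 ± 0.56 (edgeR adjusted p 0.00823). For ENSMUST00000022826_350_553 the mutant levels were 3.83, 6.20, 6.87 and 4.75 CPM fed and 1.31, 1.12, 1.76 and 1.81 CPM restricted. The responses differed by 1.95 ± 0.42 (edgeR adjusted p 0.0229), a call lost in 4 of the 16 fits that left out a library (adjusted p 0.051 to 0.0656).

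ENSMUST00000152420_55_105 responded the other way, with 3.12, 5.20, 4.62 and 3.00 CPM in fed and 1.84, 4.19, 4.01 and 6.47 CPM in restricted wild type. The wild-type libraries overlapped, while the mutant ones given above did not. The responses differed by -2.36 ± 0.52 (edgeR adjusted p 0.0254), lost in 6 of 16 fits without a library (adjusted p 0.0619 to 0.0719). Its main ORF differed in response by about as much, -2.63 (edgeR adjusted p 0.0016). The ratio of the 2 differed by 0.30 ± 0.34 and did not pass (edgeR adjusted p 0.861). On the ratio 1 of the 470 upstream pairs differed in response, where 0.133% of all pairs did. limma on the log2 ratio called 5, and edgeR called 3 when both ORFs had to average 20 P-sites. It was ENSMUST00000032073_330_344, with 4.96, 13.6, 8.81 and 11.0 per 100 in fed and 10.4, 10.4, 10.7 and 13.4 in restricted mutants. Those groups overlapped, unlike in wild type, and the difference was 3.44 ± 0.74 (edgeR adjusted p 0.0264), lost in 6 of 16 such fits (adjusted p 0.0515 to 0.103). It too rests on a mean of 1.5 P-sites per library in restricted wild type. Without fed mutant replicate 1 or 4 the count of 3 ORFs became 1, and without restricted wild-type replicate 1 it became 5. The 1 ratio became 4 without fed wild-type replicate 1, 3 without fed mutant replicate 4 and 2 without restricted wild-type replicate 4 or restricted mutant replicate 3. It became 0 without fed mutant replicate 1 or 3, fed wild-type replicate 3, restricted wild-type replicate 2 or restricted mutant replicate 4.

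Fed mutants differed from fed wild type at 16 weeks in 26 upstream ORFs, 4 higher and 22 lower, which is 5.2% against 9.14% of all ORFs, of which 5.03% were higher and 4.12% lower. The median log2 difference was -0.32 over the upstream ORFs, 0.01 over all ORFs and -0.10 over the 433 main ORFs. This comparison shares the fed groups with those on restriction. Marker sums differed too, without overlap: macrophage markers stood at 418 to 565 CPM in fed mutants and 211 to 253 CPM in fed wild type, 6 stellate cell markers at 337 to 451 CPM and 202 to 304 CPM, B and plasma cell markers at 5.14 to 14.0 CPM and 1.40 to 4.23 CPM, and hepatocyte markers at 103780 to 144776 CPM and 146200 to 155746 CPM. Their part in the upstream differences was not tested. The count was 14 without fed mutant replicate 1, 16 without fed mutant replicate 4, 13 without wild-type replicate 3 and 14 without wild-type replicate 4. Of the 24 called ORFs with a tested main ORF, 11 had a main ORF that was called too, where 29 of all 433 main ORFs were called.

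ENSMUST00000191034_115_138, of 24 bases, was at 1.48, 3.82, 1.15 and 3.45 CPM in wild type and at 0.289, 0.371, 0.401 and 0.941 CPM in mutants, all lower. The log2 difference was -2.21 ± 0.49 (edgeR adjusted p 0.00384), with -2.11 in its main ORF. ENSMUST00000028049_225_311 was at 0.919, 1.56, 0.990 and 0.972 CPM in wild type and 0.362, 0.371, 0.150 and 0.257 CPM in mutants, also apart. It differed by -1.96 ± 0.50 (edgeR adjusted p 0.0113), beside -1.47 for its main ORF.

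Of the higher ORFs, ENSMUST00000145680_28_351 was at 3.00, 2.66, 3.55 and 2.21 CPM in wild type and 11.9, 5.67, 4.66 and 6.67 CPM in mutants. ENSMUST00000068593_272_343 was at 5.16, 7.17, 4.37 and 3.98 CPM in wild type and 8.10, 9.06, 8.07 and 10.7 CPM in mutants. Both were higher in every mutant library. The log2 differences were 1.31 ± 0.38 and 0.79 ± 0.24 (edgeR adjusted p 0.0269 and 0.0315), and when 1 library was left out the first missed the threshold 4 times in 8 fits (adjusted p 0.0616 to 0.133) and the second 5 times (0.0582 to 0.107). Their main ORFs differed by 1.41 and 0.40 (edgeR adjusted p 0.00786 and 0.0792).

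The ratio was called for 1 of the 470 upstream pairs in fed mutants against fed wild type, as for 0.133% of all pairs. ENSMUST00000167149_65_139, of 75 bases, had 5.50, 6.19, 8.91 and 7.16 P-sites per 100 of its main ORF in wild type and 2.56, 1.99, 3.05 and 2.06 in mutants. The mutants were all lower, by -1.51 ± 0.31 on the log2 scale (edgeR adjusted p 0.0111), with a main ORF at 0.01. The call was lost without mutant replicate 2 (adjusted p 0.104), mutant replicate 4 (0.0942) or wild-type replicate 3 (0.125), and in limma on the log2 ratio (0.0746). The median ratio difference over the 470 pairs was -0.19, with 309 of them (65.7%) below 0, and it stayed between -0.26 and -0.15 without any 1 library. The median was -0.11 for the downstream and -0.04 for the overlapping ORFs, and -0.14 over all pairs tested.

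Old wild type differed from young wild type in 22 upstream ORFs, 5 higher and 17 lower, or 4.4% against 8.31% of all ORFs, of which 4.12% were higher and 4.19% lower. Without the old library that stands apart 16 were called, 3 higher and 13 lower. Without young replicate 4 it was 14, and 1 was higher and 17 lower with library sizes from the gene table. The median log2 change was -0.02, and 0.01 without old replicate 1. The ratio was called in 0 of the 470 pairs by edgeR and by limma, and in 0% of all pairs, with 32 at an unadjusted p under 0.05 in edgeR. Without old replicate 1 the ratio count was again 0, with 29 at an unadjusted p under 0.05, and without old replicate 2 it was 1. Markers of other cells moved with age: the sum over 6 B and plasma cell markers was 34.9 to 82.6 CPM in old and 1.40 to 4.23 CPM in young wild type, and that over 8 macrophage markers 339 to 442 CPM and 211 to 253 CPM. Their part in the upstream changes was not tested.

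ENSMUST00000021652_27_50 fell with age, from 1.32, 1.10, 3.30 and 2.30 CPM in young to 0.459, 0.540, 0.529 and 0.145 CPM in old wild type, with no overlap. The log2 change was -2.25 ± 0.45 (edgeR adjusted p 0.00205), with -2.34 in its main ORF, and without old replicate 1 it was -2.28 (adjusted p 0.00629). ENSMUST00000167149_65_139, described above for the mutants, was at 2.16, 2.31, 2.89 and 2.65 CPM in young and 1.26, 0.878, 1.21 and 0.506 CPM in old wild type. It was lower in every old library, by -1.40 ± 0.33 (edgeR adjusted p 0.00845; -1.52 and 0.0118 without old replicate 1), beside -0.15 for its main ORF. Both comparisons share the young wild type. Its ratio change with age, -1.25 ± 0.32, did not pass in edgeR (adjusted p 0.131, and 0.225 without old replicate 1).

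ENSMUST00000042118_2221_2301 rose with age, from 0.919, 0.694, 0.784 and 2.92 CPM to 2.98, 4.26, 4.38 and 3.97 CPM. ENSMUST00000037623_104_148 rose from 4.60, 3.41, 4.74 and 3.71 CPM to 5.51, 10.6, 5.74 and 7.66 CPM. The old libraries were higher throughout, if narrowly so for the first. The log2 rises were 1.64 ± 0.52 and 0.84 ± 0.25 (edgeR adjusted p 0.0483 and 0.0352), and their main ORFs differed by 2.10 and 0.90. The calls were lost in 7 and 6 of the 8 fits without a library (adjusted p 0.0623 to 0.154 and 0.0529 to 0.162); without old replicate 1 the first missed the threshold (0.0623) and the second did not (0.0281).

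Between 7 and 16 weeks, 0 upstream ORFs of the fed mutants were called by edgeR, where 0.474% of all ORFs were (0.283% higher and 0.191% lower), with 48 at an unadjusted p under 0.05. DESeq2 called 1, and edgeR fitted on these 2 groups alone called 6, of which 3 were higher and 3 lower. Without fed mutant replicate 4 the count was 1. The lowest adjusted p was 0.0567 in edgeR. Macrophage markers stood at 418 to 565 CPM at 16 weeks and 264 to 400.3 CPM at 7 weeks. B and plasma cell markers were at 5.14 to 14.0 CPM and 1.59 to 3.18 CPM. Cholangiocyte markers went the other way, at 17.7 to 25.1 CPM at 16 weeks and 25.5 to 39.2 CPM at 7 weeks. The part of these markers was not tested. The median log2 change was -0.18, and the ratio was called in 0 of the 470 pairs by edgeR and by limma, with 23 at an unadjusted p under 0.05 in edgeR and a median of -0.11. The median ratio change was lower for the downstream ORFs, at -0.15, and was -0.04 for the overlapping ORFs and -0.09 over all pairs.

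The genes that act on scanning, reinitiation and the stress response were read from the gene table as a list of 40, in which Ddit3 has 2 rows. In restricted mutants 3 were called higher and 1 lower, with 11.6% of all genes called, 5.59% higher and 6.04% lower. Higher were Hbs1l, which rescues stalled ribosomes, by 0.69 ± 0.17 on the log2 scale, Ifrd1 by 1.27 ± 0.40 and the stress transcription factor Atf5 by 0.94 ± 0.30 (edgeR adjusted p 0.00931, 0.0385 and 0.0464). Upf1, the helicase of nonsense-mediated decay, was lower by -0.35 ± 0.11 (edgeR adjusted p 0.036). The median over the list was 0.22, against 0.00 over all genes. It was 0.25 in restricted against fed wild type, where the median of all genes was 0.02. In fed mutants against wild type it was 0.14 and in old against young wild type 0.12. Between mutants of 7 and 16 weeks it was 0.03, and in the difference of responses 0.05.

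Restricted wild type had 4 of these genes higher and 3 lower, with 12.1% of all genes called, 5.44% higher and 6.71% lower. Eif2a was higher by 0.69 ± 0.17, Ppp1r15b, a subunit of the phosphatase that removes phosphate from eIF2, by 0.59 ± 0.15, and the eIF2 beta subunit Eif2s2 by 0.46 ± 0.13, all in edgeR (adjusted p 0.00766, 0.0102 and 0.0197). Lower were Eif2d and Mcts1, which act in reinitiation and ribosome recycling, by -0.60 ± 0.17 and -0.52 ± 0.16, and the glutathione-degrading enzyme Chac1 by -3.4 ± 0.89 (edgeR adjusted p 0.0198, 0.0291 and 0.0129). Chac1 was at 0.579 to 1.76 CPM in fed and at 0 to 0.433 CPM in restricted wild type, with a restricted mean of 0.108, so its change rests on very low levels. Eif2d and Mcts1 lay outside the naming rule and were chosen after their values were seen. Fed mutants had 4 higher and 1 lower than wild type, with 10.7% of all genes called, 5.69% higher and 5.04% lower. The asparagine synthetase Asns was at 0.791 to 2.14 CPM in mutants and at 0 to 0.200 CPM in wild type, a log2 difference of 3.49 ± 0.55 (edgeR adjusted p 0.000107). The eIF2 alpha subunit Eif2s1 was higher by 0.59 ± 0.12, the ribosome recycling factor Abce1 by 0.50 ± 0.11, and Atf5 was lower by -1.46 ± 0.31 (edgeR adjusted p 0.00185, 0.00512 and 0.00251).

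Old wild type had 2 of the 40 genes higher and 0 lower than young, with 9.34% of all genes called, 4.75% higher and 4.59% lower. Asns stood at 0.997 to 1.87 CPM in the old libraries, a difference of 3.57 ± 0.56 (edgeR adjusted p 0.000138), and the scanning factor Eif1a was higher by 0.79 ± 0.24 (adjusted p 0.0354). Without old replicate 1 Asns differed by 3.70 ± 0.58 (edgeR adjusted p 0.000191), and the call of Eif1a was lost, at 0.55 ± 0.24 (adjusted p 0.171). edgeR called 0 rows of the list between mutants of 7 and 16 weeks and 0 in the difference of the responses to restriction, where 0.434% of all genes (0.246% higher and 0.188% lower) and 0.803% (0.516% higher and 0.287% lower) were called, with 1 and 7 rows at an unadjusted p under 0.05. Atf4, whose upstream ORFs are the textbook case, was at 9.74 to 12.6 CPM in fed and 6.85 to 11.2 CPM in restricted mutants, which overlapped, and was called in none of the 6 comparisons. Whether the upstream ORFs of Atf4 are in the table could not be read without gene names.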

How the data were processed

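Liver ribosome profiling of 24 mice was analysed from 2 deposited tables. The authors' deposited tables hold whole counts, of P-sites per ORF and of reads per gene, with no normalization. Per the submitters' processing notes the tools included cutadapt 3.4, Bowtie2 2.4.2, STAR 2.7.0f and 2.7.8a and Subread 1.6.4, and the build was GRCm38.p6. How ORFs were chosen, how reads fitting several transcripts were counted and whether ORF ends include the stop codon is not given in the sources used here.

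P-site tests used edgeR 4.0.16 under R 4.3.3, with filterByExpr (18344 ORFs and 12211 genes kept), TMM scaling, a robust quasi-likelihood fit of 6 groups over all 24 libraries, 2-sided, with Benjamini-Hochberg adjustment over all features and a threshold of 0.05. Ratios were tested on 750 pairs of a second ORF and the main ORF, with 48 columns, a term per library and a second-to-main term per group. SE is the log2 change divided by the square root of F. The scripts were tested on simulated data. Each sample is labelled as a separate animal's liver only by its number, so p-values measure the spread between these samples. The main fits did not pair libraries by replicate number. Alternatives used DESeq2 1.42.0 and limma 3.58.1, with 0.5 added to each count of a log2 ratio.

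The upstream ORFs, gene lists and comparisons were chosen with earlier results of these data known. Named per comparison were the 2 largest rises and 2 largest falls that passed, had no overlap between groups (not asked of the difference in responses) and a mean of at least 20 P-sites in the higher group, likewise for ratios, and the 5 ORFs with the most P-sites, and of the gene list up to 4 genes per comparison by adjusted p. The part of the rule on gene names could not be applied.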

Additional observations from a re-analysis of the deposited data

Results flagged for a closer look

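In 6 of 74 sets of 4 libraries examined, 1 library stood far from the other 3, where chance gives about 1 set in 20. The summed upstream ratio of fed young wild-type replicate 4 was 30.3 per 100, against 26.1 to 26.8 in the others. ENSMUST00000028049_225_311 was at 1.56 CPM in fed wild-type replicate 2, against 0.919 to 0.990 CPM. ENSMUST00000042118_2221_2301 was at 2.92 CPM in fed young wild-type replicate 4, against 0.694 to 0.919 CPM. ENSMUST00000110375_209_262 had 11.6 P-sites per 100 of its main ORF in fed mutant replicate 3, against 6.80 to 7.61. ENSMUST00000022826_350_553 was at 1.51 CPM in restricted wild-type replicate 2, against 0.519 to 0.547 CPM. ENSMUST00000032073_330_344 had 13.4 P-sites per 100 in restricted mutant replicate 4, against 10.4 to 10.7.

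The responses to restriction differed between the genotypes by the edgeR interaction test in 4 results. The mutant minus wild-type difference was 2.94 for ENSMUST00000022826_235_330, 1.95 for ENSMUST00000022826_350_553 and -2.36 for ENSMUST00000152420_55_105 in P-sites, and 3.44 for ENSMUST00000032073_330_344 in the ratio (adjusted p 0.00823, 0.0229, 0.0254 and 0.0264).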

How the results depend on the processing

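Over 358 refits of the 24 named results, 299 kept direction and side of the threshold, 59 kept the direction but missed the threshold, in 11 results, and 0 reversed. Counts of called upstream ORFs moved by over 1.5 times in 4 cases beyond leaving out a library. Fitting only the groups compared gave 6 between mutants of 7 and 16 weeks and 11 in restricted wild type, and DESeq2 gave 1 between mutants of 7 and 16 weeks and 10 for the difference in responses. Ratio counts moved for fed mutants against wild type (0 by limma) and the difference in responses (5 by limma, 3 with a mean of at least 20 P-sites in both ORFs). The cause was not tested. In restricted mutants the ratio count was 26 by limma, 14 at that minimum and 17 with the most translated ORF as main.

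Leaving out 1 library gave count ranges of 13 to 22 for fed mutants against wild type, 14 to 22 for old wild type, 0 to 1 for mutants of 7 and 16 weeks, 16 to 34 for restricted wild type, 31 to 44 for restricted mutants and 1 to 5 for the difference in responses. For the ratio the ranges were 0 to 1, 0 to 1, 0 to 0, 0 to 1, 6 to 24 and 0 to 4 in the same order. Smaller counts can follow from fewer samples.

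Same-numbered libraries had a mean correlation of 0.0055 in their deviations over 60 pairs, against -0.0016 over 180 pairs of different number. Of the 24 libraries 10 correlated best with one of their own number. Replicate 1 of each group comes first in the order of library names, and the labels name no batch. A shared processing step by number was not tested. With the replicate number as a block the counts were 27, 22, 0, 22, 39 and 3, and the ratio counts 1, 0, 0, 1, 19 and 2, in that order.

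The share of P-sites in upstream ORFs, in the order young, restricted and old wild type, then mutants of 7 weeks, fed and restricted, was 0.146%, 0.132%, 0.151%, 0.141%, 0.132% and 0.111% without the most translated upstream ORF. With the most translated ORF as main it was 0.124%, 0.109%, 0.133%, 0.123%, 0.110% and 0.0911%. Of upstream and main P-sites together it was 20.3%, 18.4%, 19.1%, 19.9%, 18.5% and 15.9%. Leaving out a library gave 0.214% to 0.224%, 0.177% to 0.184%, 0.198% to 0.223%, 0.214% to 0.229%, 0.193% to 0.213% and 0.159% to 0.163%. Library sizes from the gene table shifted the median of all ORFs to -0.13 in old against young wild type.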
